A study of Mus musculus with 10 samples.

Results

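The 10 genes described here encode the glucose transporter Slc2a1, pyruvate kinase (Pkm) and the isoenzyme pairs of 4 steps of glycolysis, namely the hexokinases Hk1 and Hk2, the aldolases Aldoa and Aldoc, the enolases Eno1 and Eno2, and the lactate dehydrogenases Ldha and Ldhb. They were chosen by symbol among the 55385 gene identifiers of the RNA-seq data, and all 10 had enough counts to be tested. The libraries, 5 per group, were made from RNA of WT31 mouse melanoma cells and of their subline WT31_P5IV, taken from culture before confluence, to compare the parental line with a subline passaged over the liver. WT31 came from a melanoma of Tyr∷NrasQ61K/°; INK4a−/− mice, so both groups carry the mutant NRAS transgene under the tyrosinase promoter and lack INK4a. WT31_P5IV was obtained from WT31 by 5 cycles of intravenous injection, growth in the liver and return to culture. Both were grown in RPMI 1640 with 10% FCS and penicillin/streptomycin, no other drug is named for them, and no library was made from a metastasis. The labels name the libraries of a group as biological replicates, and WT31_P5IV is a single subline, so P values measure the spread between cultures of these lines and not between sublines passaged independently.

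Glycolysis turns glucose into pyruvate, and lactate dehydrogenase interconverts pyruvate and lactate. Glucose enters most cells through GLUT1, the protein of Slc2a1, and is trapped in the cell by hexokinase, whose HK1 form is made in most tissues while HK2 is typical of muscle, fat and many tumors. Aldolase A, enolase 1 and the LDHA subunit are the broadly expressed forms of their steps, and aldolase C and enolase 2 are best known from neurons. LDHA and LDHB assemble into tetramers of mixed composition, in which LDHA is classically tied to lactate formation and LDHB to lactate use.

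Libraries held 24825671 to 25750639 estimated counts in WT31 and 24255389 to 25547694 in WT31_P5IV. The melanocytic identity of the cells was seen in both groups, as all 7 melanocytic markers were tested and their summed level, in TPM (each gene's share of a library's transcripts, corrected for transcript length), was 14382 to 15223 in WT31 and 16077 to 17919 in WT31_P5IV. Single markers moved in opposite directions, as Pmel (log2 fold change 1.22), Dct (0.80) and Tyr (0.25) were higher and Tyrp1 (−0.96) and Sox10 (−0.14) lower in WT31_P5IV. Of the hepatocyte markers, Fgb and Serpina1a were at 0 counts in all libraries. Alb was at 0 counts in all WT31 libraries and reached at most 9 in a WT31_P5IV library. Apoa1 was also at 0 counts in all WT31 libraries and reached at most 4 in a WT31_P5IV library. Ttr, the only tested marker of this list, had 6 to 14 counts in WT31 and 8 to 15 in WT31_P5IV. It was not called (log2 fold change 0.26, edgeR, adjusted P = 0.438). The leukocyte markers Ptprc and Adgre1 had at most 2 counts in any library. Cd68 was higher in WT31_P5IV (80 to 117 counts as compared to 20 to 50 in WT31), and so was Acta2 (15 to 21 counts as compared to 2 to 12). The other stellate cell and fibroblast markers were too low to be tested, with 3 to 8 counts in WT31 and 4 to 6 in WT31_P5IV for Des and 1 to 8 and 0 to 3 for Lrat. Of the endothelial markers, Cdh5 was at 0 counts throughout, and Pecam1 had 1 to 8 counts in WT31 and 2 to 8 in WT31_P5IV. Summed over each list, the 5 hepatocyte markers reached 0.354 to 0.805 TPM in WT31 and 0.540 to 1.37 in WT31_P5IV, the 3 leukocyte and macrophage markers 1.65 to 4.25 and 6.12 to 9.80, the 2 endothelial markers 0.0205 to 0.248 and 0.0483 to 0.210, and the 3 stellate cell and fibroblast markers 0.384 to 0.584 and 0.603 to 0.876. These few counts were not tested for a part in the results below, and in bulk RNA fewer cells of a type and less RNA per cell cannot be told apart.

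The stretches upstream of 4 of the genes are shown because they belong to the members whose level or share differed most between the groups, together with Ldha as the partner of Ldhb. They are RefSeq sequences of GRCm38.p6 on the strand of the gene and lie upstream of a RefSeq start site. They hold no annotated exon of their own gene, and exons of other genes were not checked. In capitals they carry each ACGTG or GCGTG found on either strand, the core letters of hypoxia response elements. The E-box CACGTG appears where both strands hold ACGTG.
Slc2a1 (chr4:119108495-119108710, plus strand): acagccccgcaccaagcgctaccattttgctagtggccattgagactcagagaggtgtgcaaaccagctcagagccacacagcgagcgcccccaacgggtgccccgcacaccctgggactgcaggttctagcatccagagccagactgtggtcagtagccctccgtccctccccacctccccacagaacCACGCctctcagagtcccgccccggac
Aldoc (chr11:78322823-78322967, plus strand): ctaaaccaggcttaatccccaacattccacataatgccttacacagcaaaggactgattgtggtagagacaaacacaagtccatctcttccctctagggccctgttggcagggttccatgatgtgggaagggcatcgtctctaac
Ldha (chr7:46845554-46845803, plus strand): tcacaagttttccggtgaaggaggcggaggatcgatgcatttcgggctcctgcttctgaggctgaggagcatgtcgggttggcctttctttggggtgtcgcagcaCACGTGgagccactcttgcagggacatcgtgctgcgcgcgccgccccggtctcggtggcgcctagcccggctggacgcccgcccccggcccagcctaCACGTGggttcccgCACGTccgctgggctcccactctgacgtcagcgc
Ldhb (chr6:142507958-142508207, minus strand): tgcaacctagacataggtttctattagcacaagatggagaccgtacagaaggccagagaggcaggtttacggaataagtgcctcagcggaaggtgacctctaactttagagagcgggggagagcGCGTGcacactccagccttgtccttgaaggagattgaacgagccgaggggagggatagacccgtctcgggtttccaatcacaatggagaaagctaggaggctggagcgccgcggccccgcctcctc
The Ldha stretch lies inside the annotated Ldha locus, which begins farther upstream. It held 5 matches to ACGTG, and 4 of them lie in its 2 copies of CACGTG. The bases checked after its start site were not found in an annotated Ldha transcript. A second Ldha window (chr7:46846832-46847081), for which they were found, held 0 ACGTG, 0 CACGTG and 1 GCGTG. The stretches of Slc2a1 and Ldhb held 1 GCGTG each, and none of these letters occurred in the Aldoc stretch. The stretches of Slc2a1 and Aldoc, with 216 and 145 bases, were shortened where an exon begins, and their full windows of 250 bases also held 1 ACGTG for Slc2a1 and 1 GCGTG for Aldoc. In the 250 bases upstream of a RefSeq start site, ACGTG was present in 16.57% of 32851 promoters, GCGTG in 28.16% and CACGTG in 6.021%. The 10 genes have 18 such windows, of which 6 held ACGTG, 9 held GCGTG and 1, the Ldha window shown, held CACGTG. Windows of Aldoa and of Eno1 overlap and share matches, and by gene ACGTG was found in 5 of the 10, GCGTG in 6 and CACGTG in 1. Several of the genes have more than 1 window. The percentages of all promoters are per window, so they are no background for the counts by gene. The matches are a description of letters and were not tested as sites.

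The levels of the 10 genes were compared per transcript length as TPM. Eno1 was the most abundant with 1415 ± 37.4 TPM in WT31 (mean ± SD, n = 5, as for all values below), followed by Aldoa with 1128 ± 54.1, Pkm with 973 ± 25.8 and Ldha with 599 ± 21.5. Ldhb reached 174 ± 3.88 TPM, Hk1 72.6 ± 2.14 and Slc2a1 31.1 ± 2.54. Aldoc with 20.3 ± 0.436 TPM, Hk2 with 16.2 ± 1.44 and Eno2 with 1.47 ± 0.388 were at the lower end. In WT31_P5IV the order was the same except for Aldoc (10.1 ± 0.553 TPM) and Hk2 (13.0 ± 0.856 TPM), which changed places. Neighbours in this order did not overlap in their 5 libraries in either group. Each pair thus consisted of a major and a minor form, and the major forms were Hk1, Aldoa, Eno1 and Ldha in both groups.

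Differences between the groups were tested on estimated counts with edgeR's quasi-likelihood test over 13620 genes, and adjusted P values below are from that test with Benjamini-Hochberg adjustment over all of them. Slc2a1 and Ldhb were higher in WT31_P5IV, Hk2, Aldoa, Aldoc, Eno1 and Pkm were lower, and Hk1, Eno2 and Ldha were not called. These 2 higher and 5 lower genes of 10 stand beside 34.6% of all tested genes called higher and 33.9% called lower. With a filter on the size of the log2 fold change added (1 or more upward, −1 or less downward), Slc2a1 was the 1 member past it, and no member was past it in the lower direction, while 5.49% of all tested genes were past it upward and 3.69% downward. CPM, the estimated counts of a gene relative to the TMM-scaled size of the library and not corrected for length, did not overlap between the groups for 2 members that were higher (Slc2a1 and Ldhb) and 2 that were lower (Aldoc and Pkm), as compared to 26.6% and 27.5% of all tested genes. The median log2 fold change of the members was −0.10 and that of all tested genes 0.01. The larger differences were those of Slc2a1 and Aldoc, and the log2 fold changes of the other members lay between −0.33 and 0.22.

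**Figure D1:**
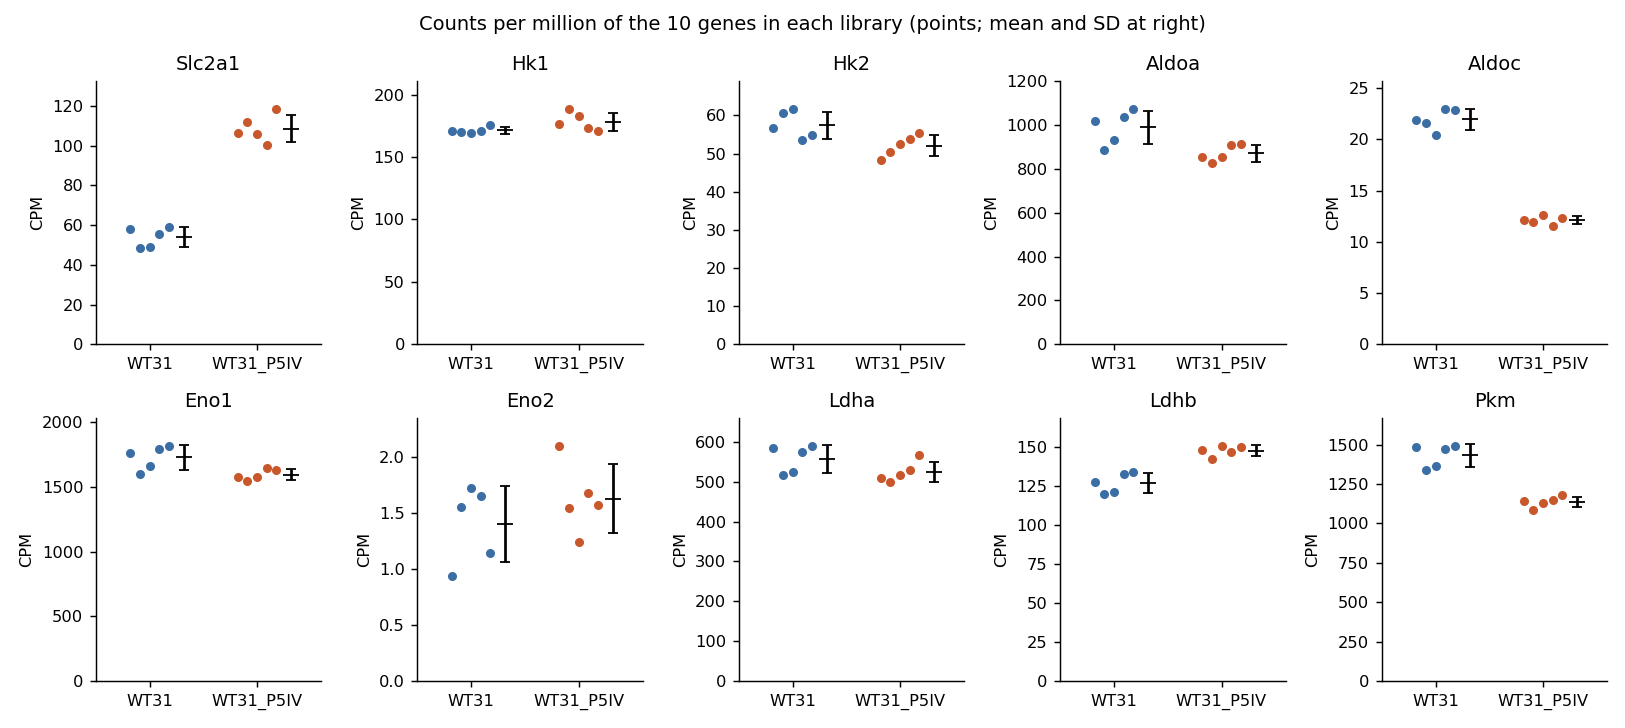
CPM (estimated counts scaled to TMM library sizes) of the 10 genes in each WT31 and WT31_P5IV library (points), with the mean and SD of the 5 libraries beside them, each axis starting at 0. The WT31_P5IV libraries lie above all WT31 libraries for Slc2a1 and Ldhb and below all of them for Aldoc and Pkm, and the groups overlap for the other 6 genes.

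Slc2a1 (ENSMUSG00000028645.11, chr4:119108711-119137983) encodes the basal glucose transporter GLUT1. Its level in the WT31 libraries 1 to 5 was 58.1, 48.4, 49.1, 55.6 and 59.2 CPM, and in the WT31_P5IV libraries 1 to 5 it was 107, 112, 106, 100.5 and 118 CPM. Every WT31_P5IV library was above every WT31 library, and within WT31 replicates 2 and 3 were the lowest. The mean rose from 54.1 ± 5.03 to 109 ± 6.79 CPM, a log2 fold change of 1.01 ± 0.06 (SE, adjusted P = 2.97e-09 by edgeR), or 101% more. This difference lay close to the filter of 1 on the log2 scale. Leaving out WT31 replicate 2 gave 0.96, WT31 replicate 3 0.96, WT31_P5IV replicate 2 0.99 and WT31_P5IV replicate 5 0.97, so that no member was then past the filter, while the adjusted P value of Slc2a1 was at most 4.30e-08 in all 10 fits without a library.

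The hexokinases differed little. Hk1 (ENSMUSG00000037012.18, chr10:62268855-62379908), the form made in most tissues, had 171, 169.6, 169, 171 and 176 CPM in the WT31 libraries and 176, 188, 183, 173 and 171 CPM in the WT31_P5IV libraries. The groups overlapped, and the log2 fold change of 0.06 ± 0.04 was not called (edgeR, adjusted P = 0.161). On the TPM scale Hk1 was 72.6 ± 2.14 in WT31 and 64.5 ± 1.75 in WT31_P5IV with no overlap. Unscaled TPM shifted all tested genes by a median of −0.17 on the log2 scale (limma on log2(TPM + 0.1)), and relative to that shift Hk1 was at −0.0037. The transcript length implied by its counts and TPM was 0.07 higher in WT31_P5IV on the log2 scale, relative to all tested genes. Hk2 (ENSMUSG00000000628.10, chr6:82725025-82774454), the form of muscle and many tumors, had 56.8, 60.6, 61.6, 53.4 and 54.8 CPM in WT31 and 48.4, 50.4, 52.5, 53.8 and 55.4 CPM in WT31_P5IV. The highest WT31_P5IV libraries overlapped the lowest WT31 libraries. Hk2 fell by 0.14 ± 0.05 on the log2 scale (edgeR, adjusted P = 0.0194), which was lost when WT31 replicates 2 and 3, the highest of their group, were left out together (−0.09, adjusted P = 0.0706).

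Both aldolases were lower in WT31_P5IV, Aldoc more than Aldoa. Aldoc (ENSMUSG00000017390.15, chr11:78322968-78327781), the brain-type form, had 21.9, 21.6, 20.4, 22.95 and 22.8 CPM in WT31 and 12.1, 11.9, 12.6, 11.54 and 12.4 CPM in WT31_P5IV. The groups were far apart and each was narrow, with all WT31_P5IV libraries below all WT31 libraries. Its mean went from 22.0 ± 1.03 to 12.1 ± 0.414 CPM, a log2 fold change of −0.86 ± 0.05 (edgeR, adjusted P = 1.71e-09). Aldoa (ENSMUSG00000030695.16, chr7:126795234-126800751), the main aldolase of these cells, had 1018, 888, 934, 1038 and 1072 CPM in WT31 and 854, 828, 853, 910.5 and 914 CPM in WT31_P5IV. WT31 replicate 2 lay inside the range of WT31_P5IV, so the groups overlapped by this library. Its log2 fold change was −0.18 ± 0.05 (edgeR, adjusted P = 0.00591). The symbol Aldoa is also held by a second identifier on the same strand upstream (ENSMUSG00000114515.2, chr7:126800790-126809108), with 14 to 25 counts in WT31 and 23 to 40 in WT31_P5IV, as compared to at least 19296 for Aldoa itself. This identifier was higher in WT31_P5IV (log2 fold change 0.81 ± 0.22, edgeR, adjusted P = 0.00498) and was not added to Aldoa.

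Among the enolases, Eno1 (ENSMUSG00000063524.13, chr4:150236721-150248879), the ubiquitous form, was lower in WT31_P5IV by a small amount. It had 1765, 1601, 1661, 1797 and 1818 CPM in WT31 and 1578, 1543, 1576, 1647 and 1634 CPM in WT31_P5IV. WT31 replicate 2 was again inside the range of WT31_P5IV. The log2 fold change was −0.12 ± 0.04 (edgeR, adjusted P = 0.0233), and with upper-quartile scaling it was −0.09 (adjusted P = 0.105). Of the 31-base words of the Eno1 transcripts, 28.5% also occur in transcripts of other genes, mainly in Eno1b, whose words were shared to 81.8%. The genes that share most of their words with Eno1 held at most 0.181% of its counts. Eno2 (ENSMUSG00000004267.16, chr6:124760053-124769673), the neuron-type form, was close to the lower end of the tested genes, with 24 to 44 counts in WT31 and 31 to 50 in WT31_P5IV. This was 0.941, 1.55, 1.73, 1.65 and 1.15 CPM in WT31 and 2.10, 1.54, 1.25, 1.68 and 1.57 CPM in WT31_P5IV. The groups overlapped nearly fully, and no difference was called (log2 fold change 0.21 ± 0.19, edgeR, adjusted P = 0.334). In TPM, Eno2 had 1.47 ± 0.388 in WT31 and 1.25 ± 0.302 in WT31_P5IV, and relative to the shift of all genes it was at −0.030 with a pseudocount of 0.1 and at 0.033 with a pseudocount of 1.

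Of the subunits of lactate dehydrogenase, Ldhb was higher in WT31_P5IV and Ldha was not called. Ldhb (ENSMUSG00000030246.11, chr6:142490249-142507957), the heart-type subunit, had 128, 119.9, 121, 133 and 134 CPM in WT31 and 148, 142, 151, 147 and 150.3 CPM in WT31_P5IV. All WT31_P5IV libraries were above all WT31 libraries. Its mean rose from 127 ± 6.57 to 148 ± 3.44 CPM, a log2 fold change of 0.22 ± 0.04 (edgeR, adjusted P = 1.89e-04). In TPM, without scaling between libraries, Ldhb was 174 ± 3.88 in WT31 and 180.2 ± 7.59 in WT31_P5IV, and this was not called (limma on log2(TPM + 0.1), log2 fold change 0.05, adjusted P = 0.344). Ldha (ENSMUSG00000063229.15, chr7:46841475-46855627), the muscle-type subunit, had 583, 516, 525, 574 and 589.7 CPM in WT31 and 509, 499.8, 517, 528 and 567 CPM in WT31_P5IV. The groups overlapped, and WT31 replicates 2 and 3 were the low libraries of their group. With all libraries the log2 fold change of −0.09 ± 0.05 was not called (edgeR, adjusted P = 0.112). Ldha was called lower without these 2 replicates (−0.17, adjusted P = 0.00185), and also without WT31 replicate 2 alone (−0.13, adjusted P = 0.0216), WT31 replicate 3 alone (−0.12, adjusted P = 0.0404) or WT31_P5IV replicate 5 (−0.12, adjusted P = 0.0359). It was also called lower with every gene of at least 1 count tested (−0.14, adjusted P = 0.0124), with an offset for transcript length (−0.12, adjusted P = 0.0373) and on TPM.

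Pkm (ENSMUSG00000032294.17, chr9:59656368-59679375) encodes both splice forms of the muscle-type pyruvate kinase, which makes pyruvate and ATP. It had 1485, 1339.7, 1364, 1474 and 1491 CPM in WT31 and 1140.1, 1087, 1127, 1145 and 1179 CPM in WT31_P5IV. No library of WT31_P5IV reached the lowest of WT31. Pkm had a mean of 1431 ± 72.7 CPM in WT31 and 1136 ± 33.3 CPM in WT31_P5IV and fell by 20.6% (log2 fold change −0.33 ± 0.04, edgeR, adjusted P = 4.29e-06). Gene totals do not separate the splice forms. Pkm shares 34.7% of its 31-base words with other genes, and the most abundant of these, Gm49759, had 264 to 484 counts as compared to at least 25345 for Pkm.

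Isoenzyme shares were computed in each library as the TPM of the minor form over the summed TPM of its pair, a measure from which a common scaling of a library drops out. The share of Ldhb was 21.8, 22.8, 22.8, 22.7 and 22.6% in the WT31 libraries and 27.3, 26.6, 27.2, 26.2 and 25.4% in the WT31_P5IV libraries. All WT31_P5IV libraries were above all WT31 libraries, and the mean rose from 22.5 ± 0.417% to 26.5 ± 0.773%, by 3.99 percentage points (two-sided exact permutation test, p = 0.00794, the smallest that 5 against 5 libraries can give, and 0.0159 adjusted over the 4 pairs). The ratio of Ldha to Ldhb went from 3.44 ± 0.0841 to 2.77 ± 0.112. For Aldoc the share was 1.74, 1.95, 1.78, 1.70 and 1.68% in WT31 and 1.13, 1.18, 1.22, 1.03 and 1.09% in WT31_P5IV. Here all WT31_P5IV libraries were below all WT31 libraries. The mean fell by 0.637 percentage points, from 1.77 ± 0.107% to 1.13 ± 0.0776% (two-sided exact permutation test, p = 0.00794, 0.0159 adjusted over the 4 pairs), and the ratio of Aldoa to Aldoc went from 55.7 ± 3.25 to 87.8 ± 6.16.

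The share of Hk2 was 18.3, 18.7, 19.6, 16.9 and 17.3% in WT31 and 15.9, 15.7, 16.4, 17.4 and 18.3% in WT31_P5IV. The groups overlapped, and the difference of −1.43 percentage points did not pass the test (two-sided exact permutation test, p = 0.0794, 0.106 adjusted over the 4 pairs). By estimated counts in place of TPM the difference was −2.48 points (exact p = 0.0317). Eno2 had 0.104 ± 0.0281% of its pair in WT31 and 0.107 ± 0.0246% in WT31_P5IV (p = 0.810, exact permutation test, two-sided). The transcript length implied by counts and TPM varied 2.46-fold between libraries for Eno2 and at most 1.10-fold for the other 9 genes, and its part in the Eno2 share was not tested. Summed over both forms, TPM changed by −12.7% for the hexokinases, −22.1% for the aldolases, −17.8% for the enolases and −12.2% for the lactate dehydrogenases. These sums are not scaled between libraries and hold the shift of all genes in TPM. In TMM-scaled CPM, which are not per length, the sums changed by 0.669% for the hexokinases, −12.7% for the aldolases, −7.67% for the enolases and −1.85% for the lactate dehydrogenases. Both are given without a test.

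**Figure D2:**
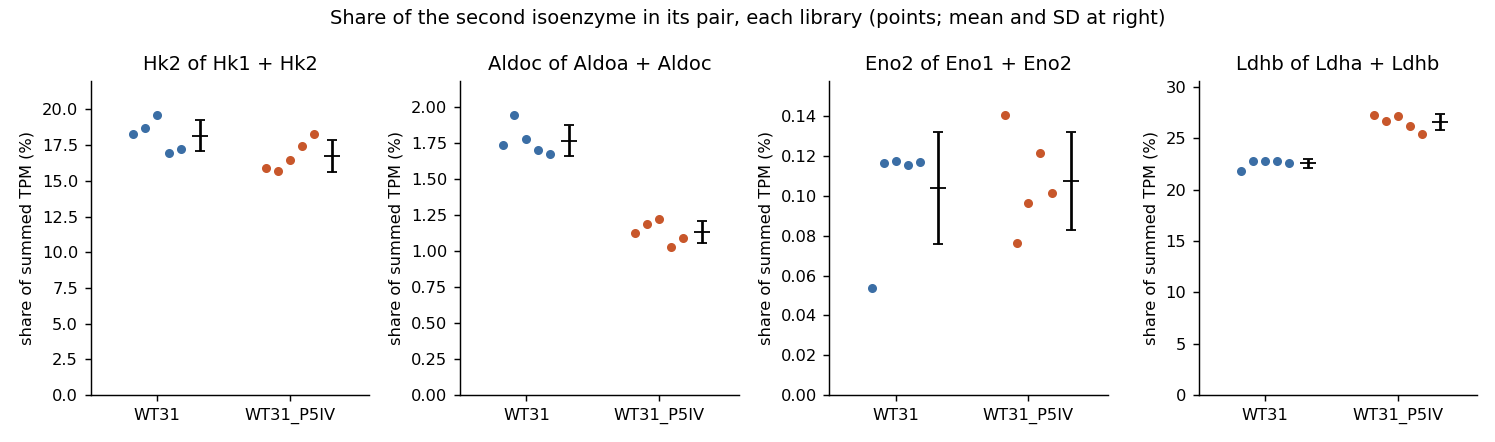
Share of the minor form in the summed TPM of its pair (percent, axes from 0) in each library (points) with the mean and SD of 5 libraries per group. The groups are apart for Ldhb (22.5% and 26.5%) and Aldoc (1.77% and 1.13%) and overlap for Hk2 and Eno2.

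The list of further isoenzymes of these steps held genes of low level. Hkdc1, a hexokinase-like gene, rose from 1.16 ± 0.291 to 2.70 ± 0.291 CPM (log2 fold change 1.23 ± 0.16, edgeR, adjusted P = 8.46e-06), and made up 0.767% of the summed TPM of the hexokinase family in WT31 and 1.73% in WT31_P5IV. Eno3, the muscle enolase, rose from 1.45 ± 0.249 to 2.23 ± 0.310 CPM (log2 fold change 0.62 ± 0.15, edgeR, adjusted P = 0.00212) and made up 0.186% and 0.323% of the enolases. Hk3, Ldhc and Pklr had at most 3 counts in each library. With the whole families as denominator, the shares of the 4 pairs kept their directions and their calls.

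Of the 10 genes, 3 share a chromosome on which most tested genes were higher in WT31_P5IV. Hk2, Eno2 and Ldhb lie on chromosome 6, where the median log2 fold change of the other 664 tested genes was 0.28 and 59.3% were called higher, while the median of the 12955 genes on all other chromosomes was −0.0026. Ldhb with 0.22 was 0.06 below this median, and 44.0% of the chromosome's genes had a lower fold change. Within 5 Mb of Ldhb the median of 40 genes was 0.13. Hk2 was lower in WT31_P5IV, and the 77 genes within 5 Mb of it had a median of 0.36, and 14.3% of the genes of chromosome 6 had a lower fold change than Hk2. Tpi1 and Gapdh, of the middle of glycolysis, are on chromosome 6 as well, with log2 fold changes of 0.24 and −0.14. Slc2a1 and Aldoc, the members with the larger differences, lie on chromosomes 4 and 11. For Slc2a1 the median of chromosome 4 was −0.01, and 93.9% of its 817 other genes had a lower fold change. Among all tested genes, 5.49% were called higher with a log2 fold change of at least 1, so such a rank follows from the size of the difference. Of the 1010 other genes of chromosome 11, 3.66% had a lower fold change than Aldoc. Gene dosage was not measured in these data, and its part in the differences of Ldhb, Hk2, Slc2a1, Aldoc or any other member was not tested.

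The rest of the pathway was counted in 4 lists. Of the 30 tested genes of these lists, 10 were higher and 15 lower in WT31_P5IV, beside the 34.6% and 33.9% of all tested genes given above. Among the other glucose transporters, 4 of 10 genes were tested, with 1 higher and 2 lower. Slc2a8, an intracellular transporter, rose from 14.2 ± 1.61 to 26.6 ± 1.54 CPM (log2 fold change 0.91 ± 0.07, edgeR, adjusted P = 4.17e-08). Slc2a13, the proton myo-inositol transporter of this family, had 106 to 146 counts in the WT31 libraries and 0 to 5 in the WT31_P5IV libraries (log2 fold change −5.50 ± 0.28, edgeR, adjusted P = 3.77e-10). Slc2a6 was lower with 2.86 ± 0.535 and 1.4997 ± 0.237 CPM (−0.93 ± 0.16, adjusted P = 1.05e-04). Slc2a1 was above these 3 transporters in both groups by TPM, with 31.1 and 55.3 as compared to 11.1 and 18.4 for Slc2a8.

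Of the 13 genes of the other steps, 12 were tested, and 4 were higher and 6 lower with a median log2 fold change of −0.13. Adpgk, which phosphorylates glucose with ADP, rose from 53.8 ± 1.43 to 88.2 ± 3.37 CPM (log2 fold change 0.71 ± 0.04, edgeR, adjusted P = 5.26e-10). Gapdhs (0.65 ± 0.22, adjusted P = 0.0146) was higher at 7 to 17 counts per library, and Pgam2 (−0.50 ± 0.16, adjusted P = 0.0112) was lower at 26 to 62 counts. The lower genes also included the abundant enzymes Gpi1 (−0.25), Pgk1 (−0.28), Pgam1 (−0.35) and Gapdh (−0.14). Of the 12 genes that control flux, 11 were tested, and 3 were higher and 7 lower with a median of −0.16. Pdp1 and Pdp2, the phosphatases that activate pyruvate dehydrogenase, fell by 0.57 ± 0.06 (edgeR, adjusted P = 5.30e-07) and by 0.63 ± 0.06 (adjusted P = 5.22e-07) on the log2 scale. Pgk2 and Pdk4 had at most 3 counts in each library.

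**Figure D3:**
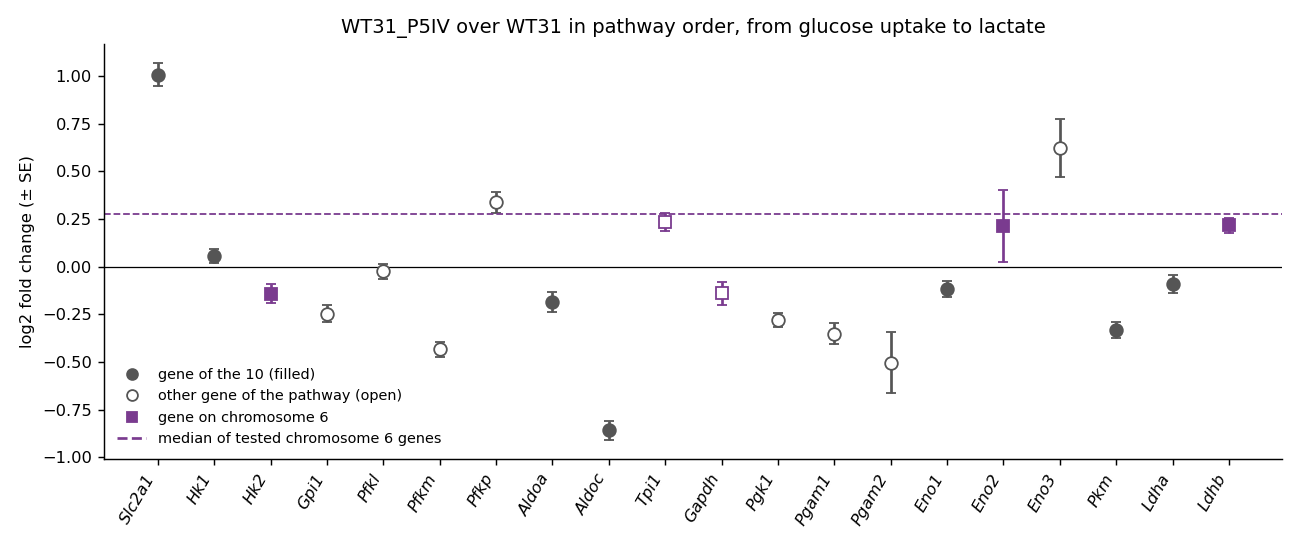
Log2 fold change (WT31_P5IV over WT31, bars ± SE) of the 10 genes (filled) and of Gpi1, Pfkl, Pfkm, Pfkp, Tpi1, Gapdh, Pgk1, Pgam1, Pgam2 and Eno3 (open) from glucose uptake on the left to lactate on the right, with genes of chromosome 6 as squares and the median of its tested genes as a dashed line at 0.28. Slc2a1 at 1.01 and Aldoc at −0.86 lie farthest from 0 among the genes plotted, and the others but Eno3 (0.62) lie between −0.50 and 0.34.

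The 5 libraries of WT31 were not alike in these genes. Replicates 2 and 3 were the lowest of WT31 for Slc2a1, Aldoa, Aldoc, Eno1, Ldha, Ldhb and Pkm and the highest for Hk2. Without both, 2 members were higher and 5 lower, but Ldha took the place of Hk2 among the lower ones. The Ldhb share then differed by 4.15 points and the Aldoc share by −0.575 points (two-sided exact permutation test, p = 0.0179 for both), and that of Hk2 by −0.752 (p = 0.321). Slc2a1 was then at 0.90 on the log2 scale, Aldoc at −0.91 and Pkm at −0.40. Among all alternatives, Slc2a1 ranged from 0.81 to 1.03, Aldoc from −0.999 to −0.83 and Pkm from −0.51 to −0.30. The lowest values of all 3 came from TPM, in which all genes were shifted by a median of −0.17 with a pseudocount of 0.1. Relative to that shift Slc2a1 was at 1.00, Ldhb at 0.21, Aldoc at −0.83 and Pkm at −0.34.

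**Figure D4:**
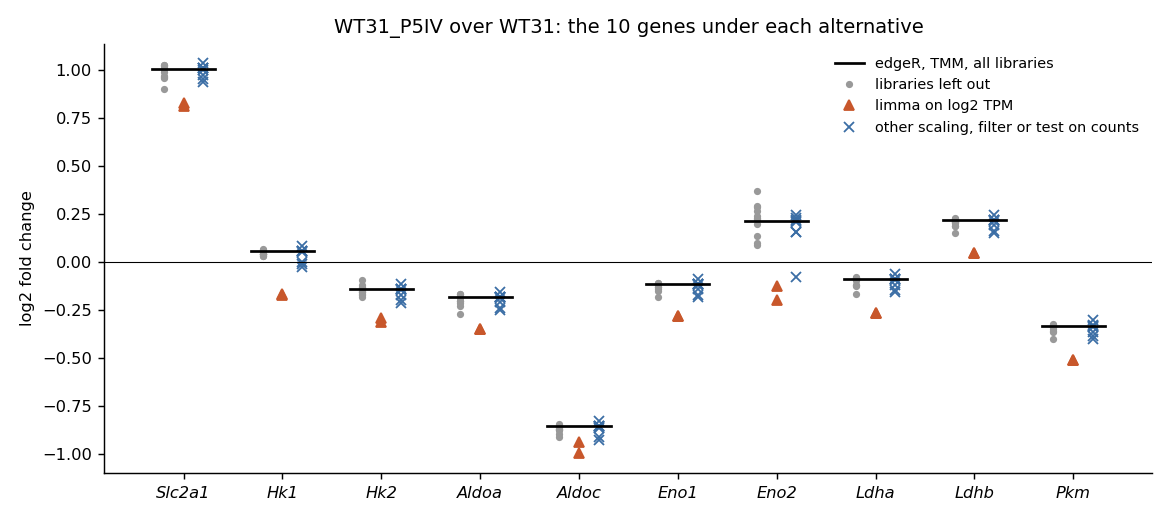
Log2 fold change (WT31_P5IV over WT31) of the 10 genes with all libraries in edgeR (lines), with 1 or 2 libraries left out (grey points), with limma on log2 TPM (triangles) and with other scalings, filters or tests on counts (crosses). Slc2a1 lies between 0.81 and 1.03 and Aldoc between −0.999 and −0.83, and Hk1 and Eno2 lie below 0 in both fits on TPM, in which all genes were shifted by a median of −0.17 or −0.16.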

How the data were processed

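RNA-seq data of 5 WT31 and 5 WT31_P5IV libraries were used, each named by its title. According to the methods and the submitters' processing notes, the authors trimmed reads with Trim Galore 0.6.4, estimated transcript abundance with kallisto against GRCm38.p6, and deposited the estimated counts and the TPM summed per gene. The labels name instruments of more than 1 maker, and the strand setting of the counting is not given in the sources used here. GENCODE M21 gave symbols and positions, and 54487 of the 55385 identifiers were found in it with the same version number.

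Estimated counts were rounded to whole numbers, filtered with filterByExpr, scaled by TMM and tested by glmQLFit and glmQLFTest of edgeR 4.0.16 (R 4.3.3) without covariates, with Benjamini-Hochberg adjustment over 13620 genes and a threshold of 0.05. Limma voom, the authors' test, was run as an alternative. Standard errors are the absolute log2 fold change without a prior count divided by the square root of F. CPM are on the scaled library sizes. Isoenzyme shares of TPM were compared by two-sided exact permutation tests of the group means. The groups were compared as independent samples. At the depth of these libraries, 3 counts correspond to 0.114 to 0.129 CPM, which covers counting error only. Words of 31 bases were used to find genes that share sequence with a member.

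Alternatives were DESeq2 1.42.0, limma 3.58.1 voom with and without scaling and filter, upper-quartile scaling, other filters, a replicate block, an offset for transcript length, limma on log2(TPM + 0.1) and log2(TPM + 1), near-identical copies added to Aldoa and Eno1, and leaving out each library. Leaving out WT31 replicates 2 and 3 together was added after seeing the data. In data simulated for this comparison over 13620 genes, the edgeR test recovered 77% of 100 genes changed by 0.5 on the log2 scale and 94% of 100 genes changed by 1, with 7 false calls.

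The members, the pathway lists and the markers were chosen with earlier results of these data known. Genes of the lists are named with values where the adjusted P was under 0.05 and the absolute log2 fold change at least 0.5, where they had at most 3 counts in all libraries (by name), and, chosen after their values were seen, where they share a chromosome or step with a result (Tpi1, Gapdh, Gpi1, Pgk1, Pgam1). Some genes of the pathway lists are not reported here by name. Scripts ran under Python 3.11.15.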

Additional observations from a re-analysis of the deposited data

Results flagged for a closer look

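In 28 groups of 5 libraries, the highest or lowest library was compared with the spread of its group by Dixon's criterion at the 95% level, which chance alone meets in about 1 of 20 groups, and 3 values met it, all in WT31. Hk1 was at 176 CPM in WT31 replicate 5, while the other WT31 libraries had 169 to 171 CPM. The share of Eno2 among Eno1 and Eno2 was 0.0539% in WT31 replicate 1 and 0.115 to 0.118% in the other WT31 libraries. Without this library the difference of the Eno2 share changed its sign, and the CPM of Eno2 was lowest in the same library. The share of Ldhb among Ldha and Ldhb was 21.8% in WT31 replicate 1 and 22.6 to 22.8% in the other WT31 libraries, and all of them were below the lowest WT31_P5IV library at 25.4%.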

How the results depend on the processing

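The counts of members called were 2 higher and 5 lower with all libraries. With limma on log2(TPM + 0.1) or log2(TPM + 1), 1 was higher, since Ldhb was not called, and 7 were lower, with Hk1 and Ldha added, while all genes were shifted by a median of −0.17 or −0.16. With every gene of at least 1 count, and with the offset for transcript length, 6 were lower, with Ldha added. Upper-quartile scaling gave 3 higher and 4 lower, with Hk1 called higher (0.09, adjusted P = 0.0417). Hk1 was thus called in opposite directions, and the lower calls ranged from 4 to 7. No member (0) was past the fold filter (1 on the log2 scale) under limma voom without scaling or filter, with every gene of at least 1 count, with the offset for transcript length, under both fits on TPM, and without WT31 replicates 2 and 3, and the number ranged from 0 to 1 when each library was left out. The number of pathway genes called higher moved from 10 to 6 under limma voom without scaling or filter, to 4 with log2(TPM + 0.1) and to 5 with log2(TPM + 1). When each library was left out, it was 9 to 10. Hk1 changed sign under limma voom without scaling or filter (−0.014), with the offset for transcript length (−0.026) and with both TPM fits (−0.17 each), as did Eno2 with the offset (−0.079) and with TPM (−0.20 and −0.13). All genes were shifted by a median of −0.069 without scaling and −0.028 with the offset. Relative to the shifts of these 4 settings Hk1 was at 0.056, 0.0019, −0.0037 and −0.0099, and Eno2 at −0.051 with the offset and at −0.030 and 0.033 with TPM. The share of Hk2 differed by −2.48 points by estimated counts and by −1.81 to −1.06 when each library was left out, and passed the test without WT31 replicate 4 (−1.73) or WT31_P5IV replicate 5 (−1.81, exact p = 0.0476 for both). When each library was left out, the share of Eno2 differed by −0.00926 to 0.0110 points and turned its sign without WT31 replicate 1, WT31_P5IV replicate 1 or WT31_P5IV replicate 4, while by estimated counts it differed by 0.0203 points. The shares of Ldhb (3.80 to 4.28 points when each library was left out) and Aldoc (−0.661 to −0.592) kept direction and call under each alternative run. The causes of the changes between these settings were not tested.

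Libraries with the same number did not vary together (correlations −0.10 to 0.18), so the numbers were not taken to pair the samples. The check and the block use the numbers of the titles, and those of the WT31 file labels differ from them. With the replicate block, 2 members were higher and 5 lower, as without it, and it changed no call of a member or of the lists' counts. Eno2 rests on 24 to 50 counts per library.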
